A study of Mus musculus with 44 samples.

Results

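Recombined cells of HexERTVP2 clone 2 were compared with unrecombined cells of the same clone, both kept without 4-hydroxytamoxifen (4-OHT). The 3 recombined arrays (replicates 2, 3 and 4 of the labels) and the 3 unrecombined arrays (replicates 1, 2 and 3) are 6 of the 44 Affymetrix MG-U74Av2 arrays of the series. They were chosen by the clone, the recombination state and the treatment in their titles. In 4 other arrays the words and the code of the title contradict each other, and these were left out. All 44 arrays were hybridised with total RNA from CGR8, a mouse embryonic stem (ES) cell line, in its clone cgr8.8. The study looked for genes that the homeodomain protein Hex (gene Hhex) controls. Both groups hold an insert at Rosa26, a locus read in most mouse cells, named HexERTVP2. In fusions with the ERT domain of the oestrogen receptor, 4-OHT is the ligand that activates the protein, and neither group received it. What recombination changed in the insert, its promoter and the recombinase are not given in the sources used here, and the labels do not say whether recombined cells were picked as a colony of their own. The 6 arrays stem from 1 targeted clone, and no label says that replicate arrays were separate cultures. The p-values therefore measure only the spread between arrays of a group, which may be technical. That spread was pooled over the 39 arrays of 11 groups in the fit, most of them outside the groups compared.

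ES cells keep their identity through a network of transcription factors with Oct4 (Pou5f1), Sox2 and Nanog at its core and Klf4, Tfcp2l1, Nr0b1 and others around it. Cells that leave this state early can become primitive endoderm, which lays down a basement membrane of type IV collagen and laminin and takes up nutrients through receptors such as cubilin (Cubn) and the adaptor Dab2. In whole cultures, fewer cells of a type and less RNA per cell cannot be told apart.

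Values are log2 of the deposited intensities, so a difference of 1 is a doubling, and errors of means are SDs over arrays. Changes are recombined minus unrecombined, with standard errors (SE) and p-values of limma's moderated test, adjusted by Benjamini-Hochberg over 12422 probe sets. A probe set passed at an adjusted p under 0.05, and "rose" and "fell" are kept for those that did. The fit held 39 of the 40 arrays that have a group, because array 2 of the unrecombined Hex cells stands apart (mean correlation 0.869 with the others). The 3 recombined arrays resembled each other more (Pearson correlations over probe sets of 0.9933 to 0.9964) than the 3 unrecombined ones (0.9784 to 0.9905). Among the fitted arrays, unrecombined array 3 had the lowest mean correlation with the other assigned arrays, 0.9784. The array that stands apart is included in these means. The log2 ratio of 3′ to 5′ GAPDH signal grows where RNA is degraded or labelling falls short, and it was 0.49, 0.06 and 0.32 on the unrecombined arrays and 0.76, 0.75 and 1.01 on the recombined ones, so the groups did not overlap. The β-actin ratio did overlap, with 0.87 ± 0.53 against 1.17 ± 0.27. The part of RNA quality in the results below was not tested beyond fits that hold each ratio as a covariate, and the counts of those fits are given for the gene lists described.

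Hhex itself did not pass the test. Its probe set stood at 6.14, 6.23 and 5.95 on the unrecombined arrays and at 6.25, 6.21 and 6.08 on the recombined ones, a change of 0.07 ± 0.09 (SE, adjusted p = 0.682). It stood at 6.25 ± 0.15 in cells with recombined Hex too, against 6.14 ± 0.06 in wild type. The labels do not say which part of Hhex the inserts hold, so this probe set may lie outside it and then checks nothing. Tle4 and Nodal are known targets of Hex. Tle4, a Groucho co-repressor, was at 8.28, 8.94 and 8.88 and then at 8.66, 8.96 and 8.45, a difference of -0.01 ± 0.27 (adjusted p = 0.985). Nodal, a ligand related to TGF-β, stood at 7.53, 7.82 and 7.94 and then at 7.77, 7.90 and 7.74, a difference of 0.04 ± 0.16 (adjusted p = 0.908). The arrays overlapped for both. The transcript of the targeted locus, Gt(ROSA)26Sor, was at 4.28 ± 0.08 and 4.30 ± 0.09 in the groups compared (difference 0.02 ± 0.14, adjusted p = 0.96) and at 5.36 ± 0.17 in wild type, and none of the 8 measured genes of that locus and its surroundings passed.

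Recombined and unrecombined clone 2 differed in 518 of 12422 probe sets, 4.17%. Of these 392 rose (3.16%) and 126 fell (1.01%), so 75.7% of the calls were rises, although the median change over all probe sets was -0.04. The arrays of the groups did not overlap in 389 of the 392 rises and in 119 of the 126 falls, against 2550 of all 12422 probe sets. Probe sets that rose were bright ones (median mean log2 intensity 7.91, against 6.77 over all), and probe sets that fell were dim (6.37). The size of the count was not stable: it was 40 with the array that stands apart kept in the fit, 13 in a fit of the 6 arrays alone, 233 with the GAPDH ratio and 1214 with the β-actin ratio in its place. Each covariate also moved the share of rises, to 68.7% with the GAPDH ratio and 61.0% with the β-actin ratio. The count was 97 without unrecombined array 3, 103 without recombined array 2 and 136 without recombined array 3.

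The clearest falls were in genes of the basement membrane and of endoderm. Col4a1, the α1 chain of type IV collagen, stood at 9.67, 8.92 and 8.91 before recombination and between 7.99 and 8.05 on all 3 arrays after it. It fell 2.22-fold (log2 change -1.15 ± 0.21, adjusted p = 0.00102), the largest fall among named genes, and every recombined array lay below every unrecombined one. Col4a2, the α2 chain of the same collagen, went from 8.29, 8.45 and 8.21 to 7.58, 7.73 and 7.68. It fell 1.57-fold (-0.65 ± 0.07, adjusted p = 2.59e-07), and its arrays did not overlap either. The genes lie head to head on chromosome 8 of GRCm38.p6, with annotated start sites 21 bases apart at 11312826 (Col4a1, minus strand) and 11312805 (Col4a2, plus strand) in RefSeq. Lama1, the laminin chain that type IV collagen meets in this membrane, was at 7.42, 7.81 and 7.75 and then at 6.89, 6.94 and 6.62, a fall of 1.79-fold (-0.84 ± 0.16, adjusted p = 0.00158).

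Dab2, the endocytic adaptor, was at 6.40, 6.93 and 6.53 on the unrecombined arrays and at 5.46, 5.44 and 5.80 on the recombined arrays. It fell 2.07-fold by this probe set (-1.05 ± 0.13, adjusted p = 4.98e-06), while its other 2 probe sets changed by -0.25 and -0.13 and did not pass. Cubn, the receptor that works with it, went from 6.63, 6.57 and 6.54 to 5.84, 5.88 and 5.88, a fall of 1.64-fold (-0.71 ± 0.10, adjusted p = 3.7e-05), and its other probe set changed by -0.23 without passing. The spread within each group was 0.05 or less for Cubn, far under the difference. Sox17, a transcription factor of primitive and definitive endoderm, fell by 0.39 (from 7.48 ± 0.22 to 7.09 ± 0.11, adjusted p = 0.0456), and Apoa1, an apolipoprotein of visceral endoderm, fell by 0.44 (adjusted p = 0.00969). The other probe set of Sox17 changed by -0.31 (adjusted p = 0.0872). The regulator Gata6 fell on 1 of its 3 probe sets (-0.35 ± 0.09, adjusted p = 0.02), while the probe set that stands for it in the list changed by -0.16 (adjusted p = 0.296) and the third by -0.11 (adjusted p = 0.557). The regulator Gata4 (-0.05, adjusted p = 0.823) did not pass, nor did Sparc, an abundant matrix protein of parietal endoderm (0.36, adjusted p = 0.232).

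**Figure D1:**
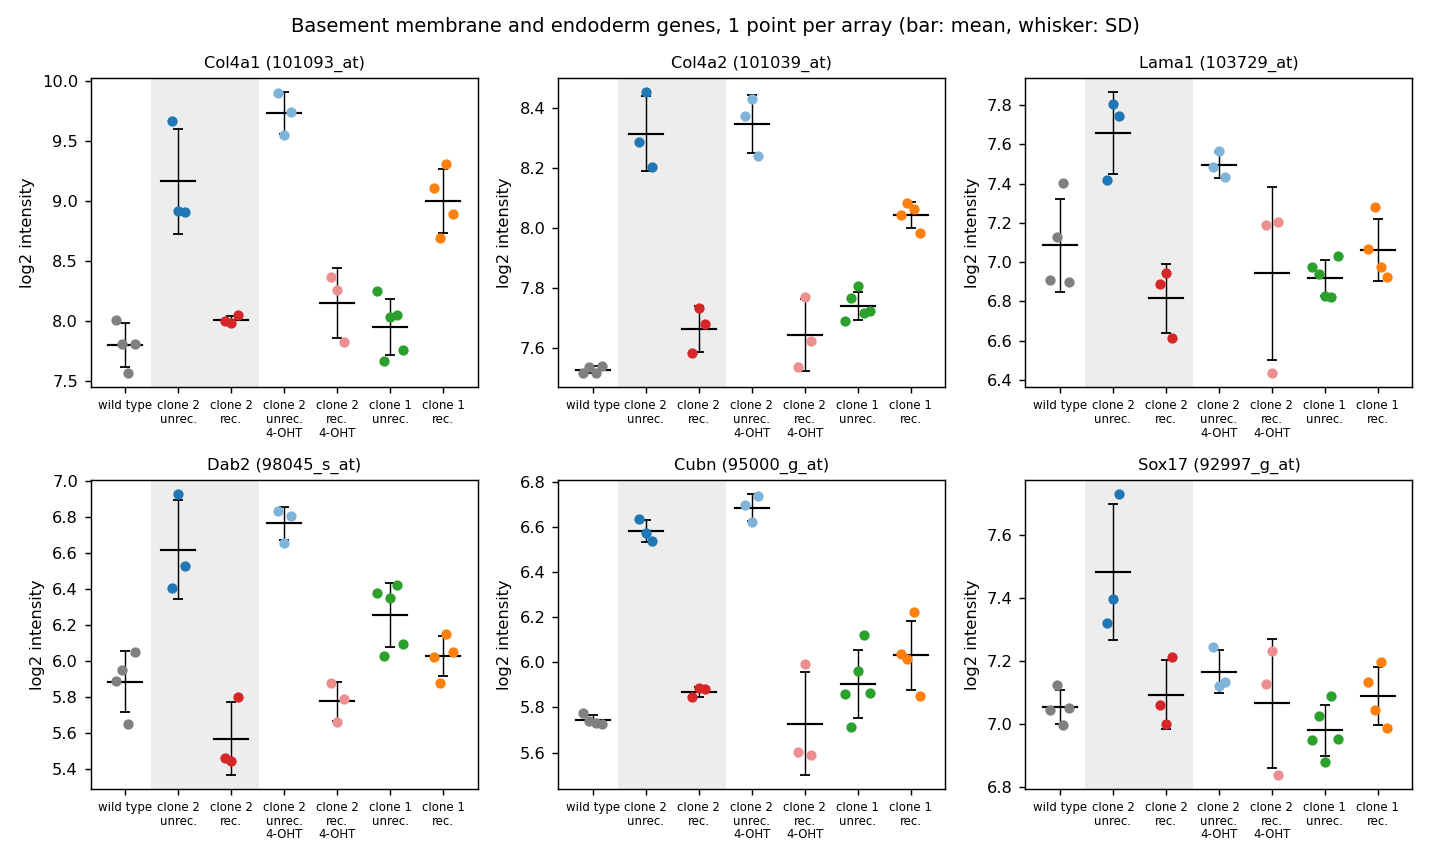
Log2 intensity of 6 basement membrane and endoderm genes on each array of wild type, of clone 2 with and without 4-OHT and of clone 1 without 4-OHT (points: arrays; bars: means; whiskers: SD; shaded: the groups compared). In each panel the 3 recombined arrays of clone 2 without 4-OHT lie below the 3 unrecombined ones.

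With each gene represented by its brightest probe set, 5 of the 35 measured genes of primitive and visceral endoderm fell and 1 rose, with a median change of -0.17 against -0.04 over all probe sets. Of all probe sets 1.01% fell and 3.16% rose. The falls were Col4a1, Col4a2, Lama1, Sox17 and Apoa1, and Rhox5, the gene that rose, is a homeobox gene of several extraembryonic tissues. Of 18 measured genes of the basement membrane and matrix, 3 fell (the same collagen and laminin genes) and 1 rose, with a median of -0.06. With the GAPDH covariate 0 rose and 3 fell, and with the β-actin covariate 1 rose and 5 fell. The gene that rose was Nid2 (0.66 ± 0.16, adjusted p = 0.0173), which codes for nidogen, a linker of laminin and collagen networks. In the endoderm list 4 genes fell with the GAPDH ratio as a covariate and 9 with the β-actin ratio, 4 with all 40 assigned arrays, and 3 to 8 when any 1 of the 6 arrays was left out. The summed intensity of 11 endoderm markers was 1710 to 1837 on the unrecombined arrays and 1571 to 1662 on the recombined ones, with Ttr under a log2 intensity of 6 on all 6 arrays. Such a shift was not particular to endoderm. Sums of primitive streak and mesoderm markers went from 376 to 437 down to 350 to 365. Those of neuroectoderm went from 1036 to 1151 up to 1220 to 1274. Sums of 13 ES cell markers overlapped (16514 to 19872 and 19039 to 21235). In the primitive streak and mesoderm list the median was -0.13, and 3 of 29 changes were positive.

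The other named falls were smaller or less steady. Grb10, an imprinted adaptor that restrains growth, fell from 6.83 ± 0.16 to 6.24 ± 0.08 (-0.58 ± 0.12, adjusted p = 0.00663) and passed in all 6 fits that each left out an array. Srgn, the proteoglycan serglycin, fell 1.51-fold (-0.59 ± 0.13, adjusted p = 0.0098) and passed in 3 of these 6 fits. Lgals1, the lectin galectin-1, fell from 9.45 ± 0.40 to 8.72 ± 0.21 (-0.73 ± 0.21, adjusted p = 0.0394). Cldn6, a tight junction claudin, fell by 0.68 (adjusted p = 0.0457), Ssbp4, a member of a family of transcriptional cofactors, by 0.66 (adjusted p = 0.0435) and Col18a1, a further collagen of basement membranes, by 0.59 (adjusted p = 0.0236). Other probe sets of Grb10, Ssbp4 and Col18a1 did not pass. Lgals1, Cldn6, Ssbp4 and Col18a1 each failed to pass in at least 1 of the 6 fits with an array left out. None of the 4 passed with the GAPDH ratio as a covariate. Mapkapk2, a kinase activated by p38, was at 4.32, 4.88 and 5.53 before and at 4.17, 4.28 and 4.31 after recombination, so its fall of 0.66 (adjusted p = 0.0312) did not pass without unrecombined array 3 or without any 1 of the recombined arrays. Its brighter probe set went from 7.73 to 7.41 (-0.33, adjusted p = 0.396) and did not pass.

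Of 24 measured genes of the pluripotent state 7 rose, and Pou5f1 and Sox2 were not among them. Nanog stood at 10.94, 10.58 and 10.43 on the unrecombined arrays and at 11.43, 11.25 and 11.40 on the recombined arrays. It rose 1.63-fold (0.71 ± 0.13, adjusted p = 0.00158), and the groups did not overlap. Its dimmer probe set changed by 0.43 (adjusted p = 0.154). Klf4, a reprogramming factor of the naive state, went from 9.14, 8.82 and 8.65 to 9.69, 9.59 and 9.64, a rise of 1.70-fold (0.77 ± 0.16, adjusted p = 0.00663). Its other probe set, dim with a mean of 3.30 on the unrecombined arrays, changed by -0.12 (adjusted p = 0.349). Dppa3, a maternal and germ line protein that protects DNA methylation marks, went from 7.13, 7.10 and 6.73 to 7.96, 7.75 and 7.81. Its rise of 1.81-fold (0.85 ± 0.14, adjusted p = 0.000281) was the largest of the list.

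Tfcp2l1, a target of LIF signalling, rose from 8.34 ± 0.08 to 8.97 ± 0.08 (0.63 ± 0.09, adjusted p = 4.87e-05), while its other probe set went from 7.19 to 7.22 (0.03, adjusted p = 0.903). Fbxo15, an ES cell F-box gene that Oct4 and Sox2 activate, was at 8.99, 9.30 and 9.29 and then at 9.87, 9.87 and 9.80 (0.65 ± 0.12, adjusted p = 0.00109). The nuclear receptors Nr0b1 (0.50 ± 0.14, adjusted p = 0.0416) and Nr5a2 (0.36 ± 0.08, adjusted p = 0.0082) also rose, although the other probe set of Nr0b1 changed by -0.02. That of Nr5a2 changed by 0.24 (adjusted p = 0.234). Pou5f1 (0.15, adjusted p = 0.835) and Sox2 (0.27, adjusted p = 0.562) did not pass, with unrecombined arrays of Pou5f1 as far apart as 10.85 and 12.01. Zfp42 (Rex1) changed by 0.49 (adjusted p = 0.0973) and Esrrb by -0.18 (adjusted p = 0.371) without passing. Of 24 measured pluripotency genes 7 rose and 0 fell, where 3.16% of all probe sets rose and 1.01% fell. The median change was 0.25 against -0.04 over all probe sets. The 7 rises became 6 with the GAPDH covariate and 10 with the β-actin covariate, 5 to 9 when any 1 of the 6 arrays was left out, and 0 when all 40 arrays were fitted.

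**Figure D2:**
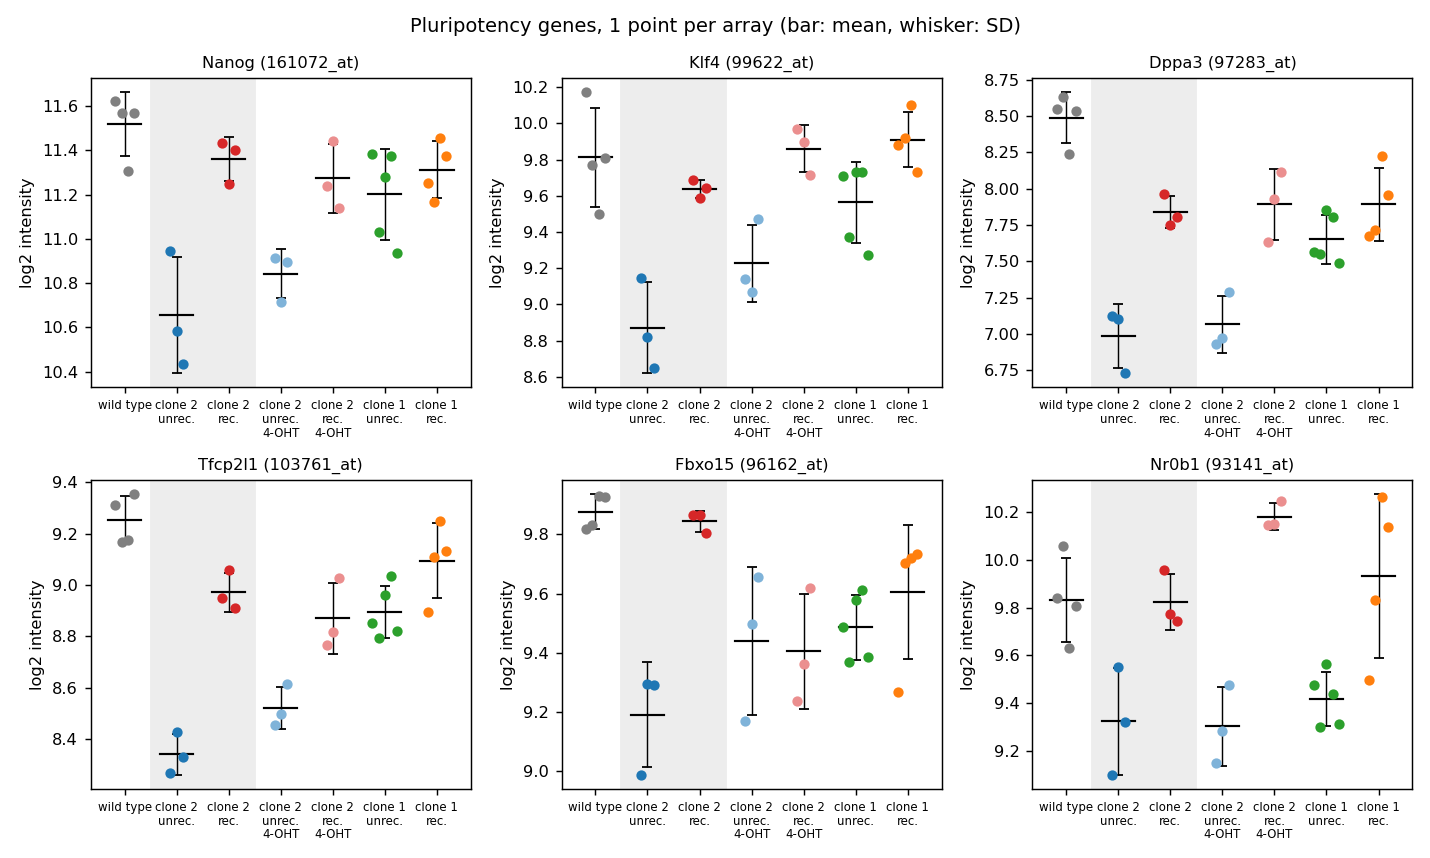
Log2 intensity of 6 pluripotency genes on each array, in the groups and with the symbols of the plot of endoderm genes (bars: means; whiskers: SD). The recombined arrays of clone 2 without 4-OHT lie above the unrecombined ones in each panel, and the means of wild type lie at or above those of the recombined arrays.

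The Nanog promoter is shown because it is known for a joint element of Oct4 and Sox2. The 250 bases before the downstream of its 2 annotated starts are printed 5′ to 3′ (chr6:122707315-122707564, plus strand, GRCm38.p6, from RefSeq), with the octamer TTTGCAT and the Sox motif ACAATG in capitals, which lie 1 base apart.
Nanog: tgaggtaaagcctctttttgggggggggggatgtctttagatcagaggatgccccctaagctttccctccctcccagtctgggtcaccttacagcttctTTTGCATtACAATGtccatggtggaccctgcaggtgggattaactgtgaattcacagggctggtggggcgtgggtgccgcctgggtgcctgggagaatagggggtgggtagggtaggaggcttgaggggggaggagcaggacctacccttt
Searched on both strands, the octamer occurs in 4.12% and the Sox motif in 10.7% of 32851 such windows. The windows of Klf4, Tfcp2l1, Nr0b1 and Nr5a2 hold neither, and those of the other genes were not in the table. The match is a description of the letters only.

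Germ cell precursor genes overlapped with this list. Of 8 measured 3 rose, against 3.16% of all probe sets: Dppa3, Kit and Tfap2c. Kit, the receptor of stem cell factor, was at 7.09, 7.37 and 7.09 and then at 7.68, 7.72 and 7.81 (0.55 ± 0.10, adjusted p = 0.0012). Tfap2c, a transcription factor of germ cell precursors and of trophoblast, rose by 0.35 ± 0.10 (adjusted p = 0.0291), but passed in 1 of the 6 fits with an array left out and not with the GAPDH covariate (adjusted p = 0.107). Ddx4, Sycp3 and Stra8, genes of later germ cells, did not pass, and the list's median was 0.05. With the GAPDH covariate 2 genes of the list rose and 1 fell, with the β-actin covariate 3 rose and 1 fell, and with all 40 arrays none passed by limma. Rhox5, whose promoter is kept silent by DNA methylation in many cells, was at 7.56, 7.28 and 7.28 and rose to 8.02, 7.87 and 8.04 (0.60 ± 0.10, adjusted p = 0.000689), still below its wild-type level of 9.19 ± 0.09. Among the partners of Hex, the co-repressors Tle1 (0.58 ± 0.10, adjusted p = 0.00103) and Tle3 (0.32 ± 0.09, adjusted p = 0.0285) rose and Tle5 (-0.13, adjusted p = 0.513) did not pass. With the GAPDH ratio as a covariate Tle1 passed and Tle3 did not (adjusted p = 0.0834).

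The guanylate-binding proteins, large GTPases that interferon induces and that act against pathogens inside cells, rose together. Gbp2 was at 6.91, 7.11 and 6.86 on the unrecombined arrays and at 7.89, 7.89 and 7.70 on the recombined ones. It rose 1.82-fold (0.87 ± 0.09, adjusted p = 5.18e-07) to just under its wild-type level of 7.96 ± 0.08. Gbp2b went from 6.75, 6.55 and 6.61 to 7.41, 7.37 and 7.46 (0.78 ± 0.11, adjusted p = 8.2e-05), and Gbp3 from 6.94, 6.76 and 6.33 to 7.32, 7.36 and 7.46 (0.70 ± 0.17, adjusted p = 0.0149). No array of any of these genes overlapped between the groups. The 3 genes are neighbours on chromosome 3 in the order of measured genes, and sequence shared between family members could let a probe set read more than 1 of them.

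Interferon acts on such genes through an element with repeated GAAA. The 250 bases before the start are printed 5′ to 3′ on the gene's strand for the 4 genes of the interferon list that rose, from RefSeq (GRCm38.p6), with 2 GAAA runs spaced by 2 bases of any kind, or their reverse complement of 2 TTTC runs, in capitals. The windows are chr3:142620413-142620662 (Gbp2, plus strand), chr3:142594597-142594846 (Gbp2b, plus), chr3:142559794-142560043 (Gbp3, plus, the upstream of its 2 starts) and chr11:48871421-48871670 (Irgm1, minus).
Gbp2: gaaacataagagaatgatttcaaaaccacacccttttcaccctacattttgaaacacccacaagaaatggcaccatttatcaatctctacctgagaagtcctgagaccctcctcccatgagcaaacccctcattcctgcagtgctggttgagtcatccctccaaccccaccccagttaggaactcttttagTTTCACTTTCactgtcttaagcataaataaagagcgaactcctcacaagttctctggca
Gbp2b: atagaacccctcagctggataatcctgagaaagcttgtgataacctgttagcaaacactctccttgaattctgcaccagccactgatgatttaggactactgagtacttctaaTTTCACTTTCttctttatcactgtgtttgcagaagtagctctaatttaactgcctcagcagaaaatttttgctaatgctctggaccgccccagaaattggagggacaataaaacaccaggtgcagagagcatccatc
Gbp3: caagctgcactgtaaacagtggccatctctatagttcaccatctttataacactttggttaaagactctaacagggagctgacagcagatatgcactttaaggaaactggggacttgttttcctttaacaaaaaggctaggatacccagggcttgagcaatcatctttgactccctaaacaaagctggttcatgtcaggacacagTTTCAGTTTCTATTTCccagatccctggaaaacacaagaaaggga
Irgm1: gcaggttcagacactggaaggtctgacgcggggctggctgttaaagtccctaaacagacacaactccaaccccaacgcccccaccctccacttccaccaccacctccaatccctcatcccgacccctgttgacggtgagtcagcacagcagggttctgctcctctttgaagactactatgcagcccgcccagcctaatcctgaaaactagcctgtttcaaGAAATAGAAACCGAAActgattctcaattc
The motif is found in all 4 windows and in 2.98% of the 32851 windows, both strands searched. It lies 59 bases before the start of Gbp2 and 137 before that of Gbp2b, and it occurs in overlapping pairs before Gbp3 and Irgm1. The window of the other annotated start of Gbp3 and that of Psmb8 do not hold these letters. Because the genes come from a list of interferon-induced genes, such a match was likely from the start. It says nothing about the rise on recombination. Apart from Psmb8, no window of a list member that did not rise was searched. The match is a description of the letters only.

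Irgm1, a GTPase of the same response, was at 4.92, 5.08 and 4.95 and then at 5.51, 5.61 and 5.42 (0.53 ± 0.13, adjusted p = 0.0204). Of 26 measured interferon-induced and immunoproteasome genes, 4 rose and 1 fell, with a median of 0.08, where 3.16% of all probe sets rose and 1.01% fell. The gene that fell was Tap2, a peptide transporter named after its values were seen (-0.46 ± 0.13, adjusted p = 0.0405), which was at 7.30 on unrecombined array 3 and at 6.82 and 6.48 on the other two. The interferon regulatory factor Irf1 (0.12, adjusted p = 0.595) and the immunoproteasome subunit Psmb8 (0.19, adjusted p = 0.644) did not pass. Gbp2 and Gbp2b were the 2 rises of this list with the GAPDH covariate and with all 40 arrays; Gbp3 and Irgm1 passed in neither, and each of those passed in 3 of the 6 fits with an array left out. With the β-actin covariate 4 rose and 1 fell.

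**Figure D3:**
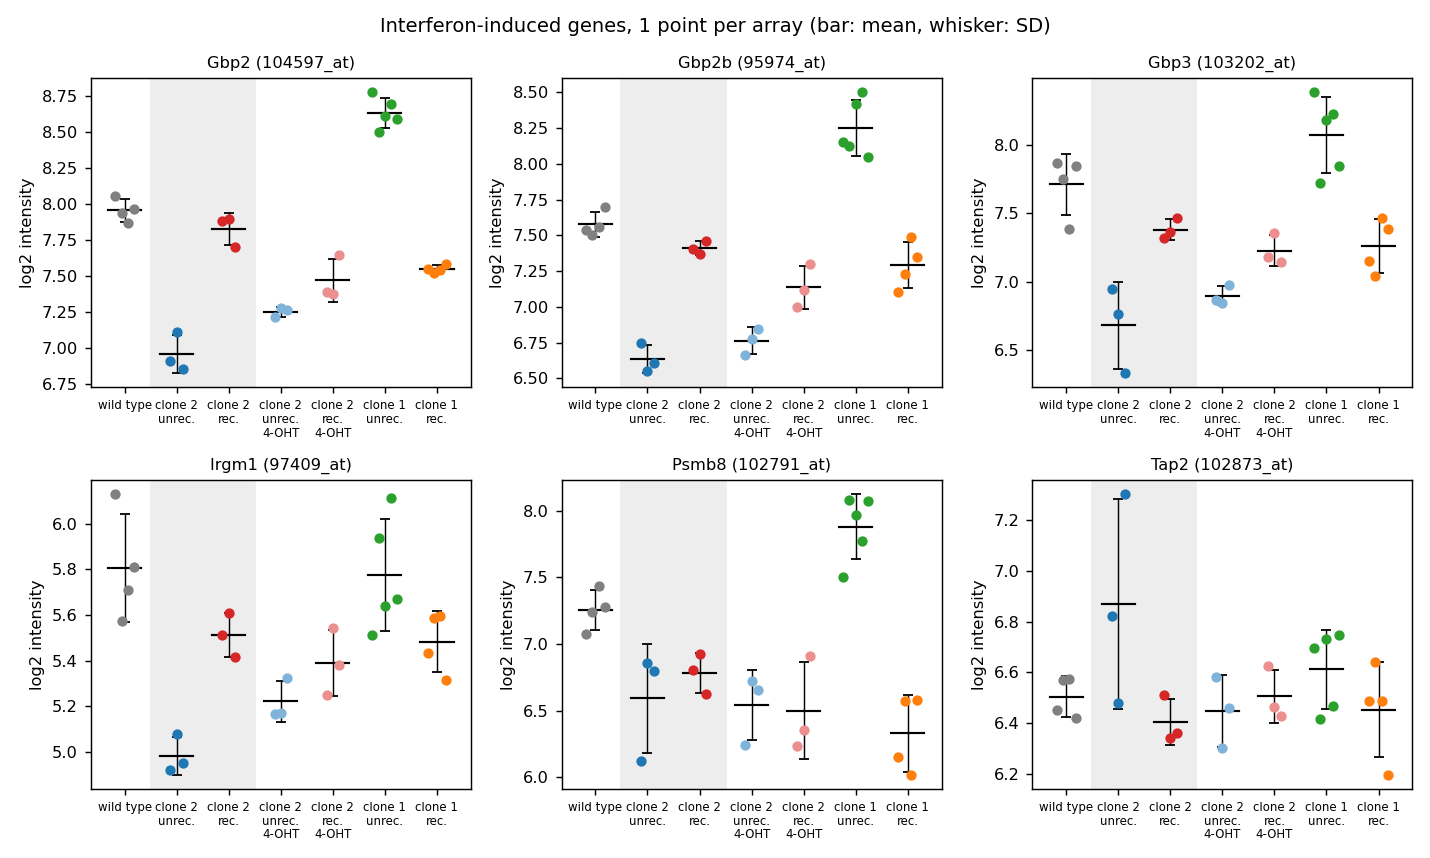
Log2 intensity of 6 interferon-induced or antigen-processing genes on each array, in the groups and with the symbols of the plot of endoderm genes (bars: means; whiskers: SD). For Gbp2, Gbp2b and Gbp3 the recombined arrays lie above the unrecombined ones in clone 2 and below them in clone 1.

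Further named rises came from several processes. Xbp1, a transcription factor of the unfolded protein response, rose most among named genes. It was at 6.79, 7.08 and 7.04 on the unrecombined arrays and at 8.28, 8.28 and 7.96 on the recombined ones, a 2.31-fold rise (1.21 ± 0.18, adjusted p = 0.000143) to the wild-type mean of 8.18 ± 0.21. Hspa5, the chaperone BiP of the endoplasmic reticulum, rose by 0.79 ± 0.21 (adjusted p = 0.0311) and did not pass with the GAPDH covariate (adjusted p = 0.101). Ak4, a mitochondrial adenylate kinase, went from 7.11, 7.26 and 6.84 to 8.16, 8.22 and 8.07 (1.08 ± 0.11, adjusted p = 2.59e-07), and its other probe set changed by 0.45 without passing. Calcoco2, an autophagy receptor, went from 7.23, 7.16 and 7.17 to 8.43, 8.33 and 7.97 (1.06 ± 0.14, adjusted p = 8.77e-06). Cd1d1, which presents lipid antigens, rose by 1.09 ± 0.19 (adjusted p = 0.000906) from 4.91 ± 0.29, a dim level.

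Pfkp, a phosphofructokinase of glycolysis, rose by 1.11 and 0.88 on its 2 probe sets (adjusted p = 0.0128 and 0.0242). Rhpn2 rose 1.99-fold (0.99 ± 0.19, adjusted p = 0.00213), and Dnajc21, a co-chaperone, 1.92-fold (0.94 ± 0.16, adjusted p = 0.000689). Nabp1, which binds single-stranded DNA, rose by 0.94 ± 0.14 (adjusted p = 0.000178) and the zinc finger gene Zfp62 by 0.89 ± 0.15 (adjusted p = 0.000762). Cdh2, N-cadherin, was at 6.86, 6.32 and 5.55 and then at 7.28 ± 0.12 (1.04 ± 0.29, adjusted p = 0.0381), and Zcchc10 at 8.21, 7.52 and 6.84 and then at 8.53, 8.42 and 8.42 (0.94 ± 0.25, adjusted p = 0.0304). In both genes unrecombined array 3 was the lowest, and neither passed without it.

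Cholesterol synthesis was the remaining list with more than 3 rises. Of its 20 measured genes 4 rose and 0 fell, against 3.16% and 1.01% of all probe sets, and the median was 0.20. Hmgcs1, which makes HMG-CoA, was at 8.52, 8.56 and 8.60 and then at 9.13, 9.12 and 9.18 (0.58 ± 0.16, adjusted p = 0.0344). Idi1 (0.57 ± 0.14, adjusted p = 0.0163) makes the isoprenoid unit that follows, and Msmo1 (0.55 ± 0.12, adjusted p = 0.00657) and Sc5d (0.91 ± 0.23, adjusted p = 0.0216) act late in sterol synthesis. The other probe set of Sc5d changed by 0.09 (adjusted p = 0.652). With the GAPDH covariate 1 gene of the list rose, with the β-actin covariate 6 rose and 1 fell, and 0 passed without unrecombined array 3 or without recombined array 2.

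The other lists held at most 3 rises each, where 3.16% of all probe sets rose and 1.01% fell. Lists hold each gene's brightest probe set and rises were bright, so these shares are only a rough measure. No list was tested against them. In hypoxia and glycolysis 3 of 27 rose (Ak4, Pfkp and Pdk1, a pyruvate dehydrogenase kinase, 0.43) and 1 fell (Ddit4, an inhibitor of mTOR signalling, -0.40). In p53, heat shock and stress 2 of 25 rose (Hspa5 and Gadd45a, 0.54) and 1 fell (Gadd45g, -0.58). In Wnt signalling 0 of 39 rose and 2 fell, the co-receptor Lrp5 (-0.41, adjusted p = 0.0323) and the ligand Wnt6 (-0.32, adjusted p = 0.0362). In the cell cycle 2 of 37 rose, the spindle checkpoint kinase Bub1 (0.51) and the mitotic inhibitor Wee1 (0.51). Other probe sets of Bub1 changed by 0.26 and -0.03 and did not pass. In adhesion 2 of 28 rose and 1 fell, with the integrin Itga6 at 0.74 ± 0.17 (adjusted p = 0.0112). These counts were smaller with the GAPDH covariate: 1 rise and 0 falls for hypoxia, for stress and for adhesion, 0 and 1 for Wnt signalling, and 0 and 0 for the cell cycle. With the β-actin covariate they were 4 and 1 for hypoxia, stress and the cell cycle, 2 and 3 for adhesion, and 0 and 2 for Wnt signalling. No gene passed among 26 of neuroectoderm, 23 of fibroblasts, 14 of smooth muscle cytoskeleton and 13 of FGF and ERK signalling. The fibroblast markers Postn, Dcn and Lum stayed under a log2 intensity of 6 on all 6 arrays, and 11 fibroblast markers summed to 1688 to 1871 on unrecombined and 1641 to 1764 on recombined arrays.

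**Figure D4:**
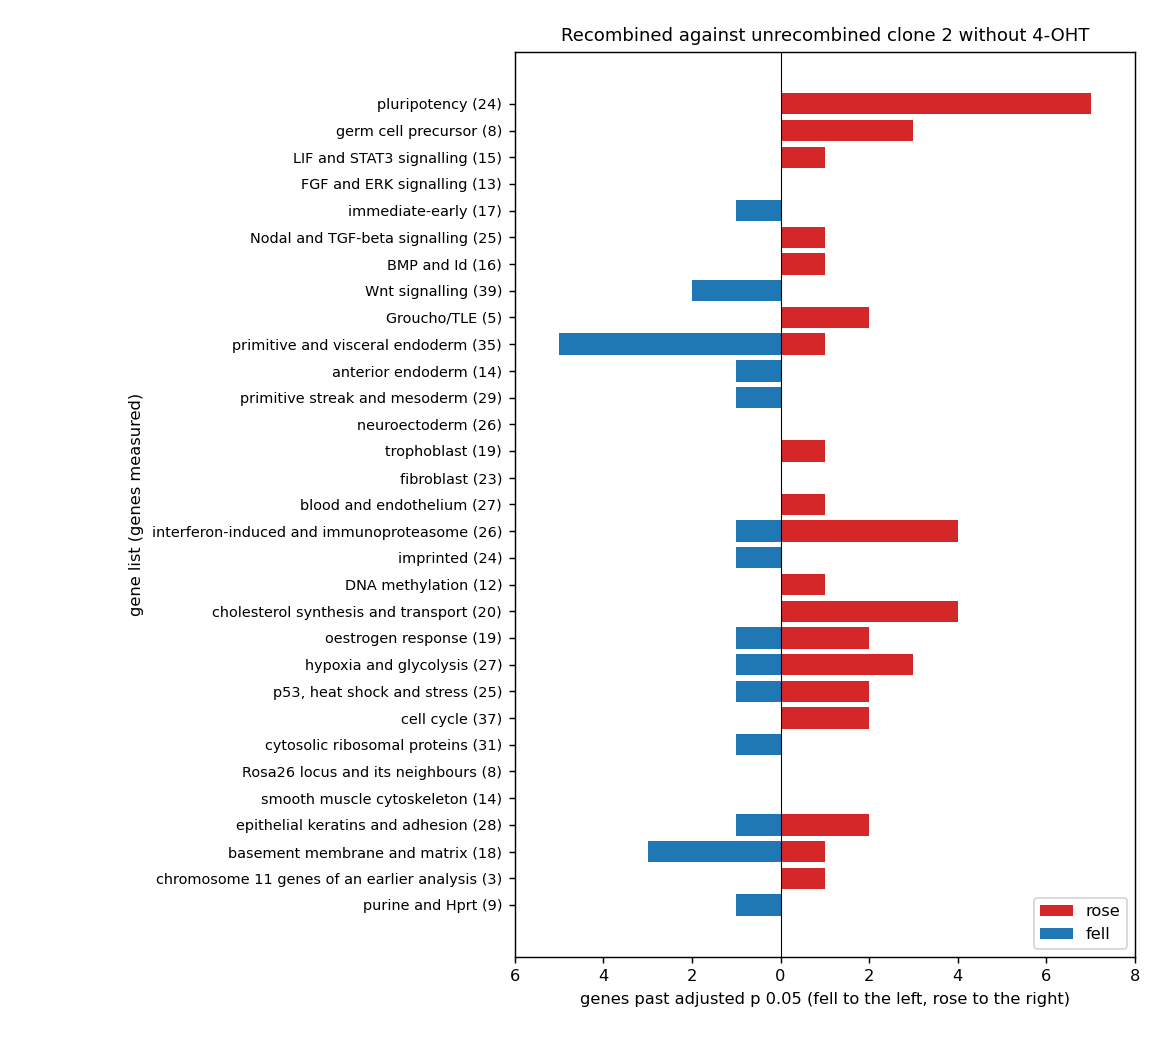
Number of genes of each of 31 lists that rose (to the right) or fell (to the left) at adjusted p under 0.05 between recombined and unrecombined clone 2 without 4-OHT, with the number measured in brackets. The longest bars are the 7 rises of the pluripotency list and the 5 falls of the list of primitive and visceral endoderm. Of all probe sets 3.16% rose and 1.01% fell.

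The same step was measured on 6 other arrays of clone 2, all with 4-OHT. No label names a separate recombination for them, so they may hold the same recombined and unrecombined cell stocks. A lasting difference between such stocks and an effect of recombination cannot be told apart by these arrays. With 4-OHT 40 probe sets passed (0.322%), 14 higher and 26 lower in recombined cells. Of the 392 rises without 4-OHT, 349 (89.0%) were also higher with it, against 55.4% of all probe sets, at a median of 0.16 compared with 0.49 without it. Of the 126 falls, 69 (54.8%) were lower with 4-OHT, against 44.6% of all. The test passed in both for 21 probe sets, all in the same direction, which is 4.05% of the calls without and 52.5% of the calls with 4-OHT.

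Type IV collagen was among them. Col4a1 fell by 1.58 with 4-OHT (from 9.73 ± 0.18 to 8.15 ± 0.29, adjusted p = 2.16e-05) and Col4a2 by 0.70 (adjusted p = 7.4e-08). Dab2 (-0.99, adjusted p = 2.16e-05), Cubn (-0.96, adjusted p = 2.67e-07) and Srgn (-0.78, adjusted p = 0.00122) fell in these arrays as well. For Dab2 and Cubn this holds for 1 probe set each. The others changed by -0.30 and -0.12 (Dab2) and by 0.17 (Cubn) and did not pass. Among the rises Rhpn2 (1.06, adjusted p = 0.00258), Xbp1 (0.91, adjusted p = 0.0103), Nr0b1 (0.88, adjusted p = 0.000888), Dppa3 (0.83, adjusted p = 0.000888), Rhox5 (0.66, adjusted p = 0.000359), Ak4 (0.60, adjusted p = 0.00396) and Tle3 (0.57, adjusted p = 0.000268) passed again. The other probe sets of Nr0b1 (0.07) and Ak4 (0.24) did not pass. Nanog (0.43, adjusted p = 0.254), Klf4 (0.63, adjusted p = 0.107), Gbp2 (0.22, adjusted p = 0.881) and Lama1 (-0.55, adjusted p = 0.175) had the same sign and did not pass. For some other genes the change with 4-OHT was near 0 or of the opposite sign. It was -0.03 for Fbxo15, -0.18 for Tfap2c, 0.05 for Apoa1, 0.01 for Kit and 0.00 for Nr5a2, and none of these 5 passed. The median over the 24 pluripotency genes was 0.03 with 4-OHT, and 2 of them rose. Zic2, a neural zinc finger gene, passed with 4-OHT on 1 of its 2 probe sets (0.86, adjusted p = 0.00231, against -0.06 on the other) and not without it (0.28, adjusted p = 0.282), and so did Gm2022 (-0.93 and -0.28) and the peptide-processing enzyme Cpe (-0.92 and -0.14). The GAPDH ratio differed by 0.13 between the groups with 4-OHT and by 0.55 between those without.

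The difference between the steps with and without 4-OHT passed for 1 of 12422 probe sets (0.00805%; 1103 at an unadjusted p under 0.05). That was Inhbb, the βB subunit of activin and inhibin, which rose from 4.82 ± 0.07 to 5.23 ± 0.13 without 4-OHT and with it stood at 4.67 ± 0.10 in recombined cells, a change of -0.34 (adjusted p = 0.139). Its difference was -0.74 ± 0.13 (adjusted p = 0.0303), at a dim level, and it did not pass with all 40 assigned arrays in the fit. For the other genes named here a call with and none without 4-OHT, or the reverse, is therefore no shown difference.

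**Figure D5:**
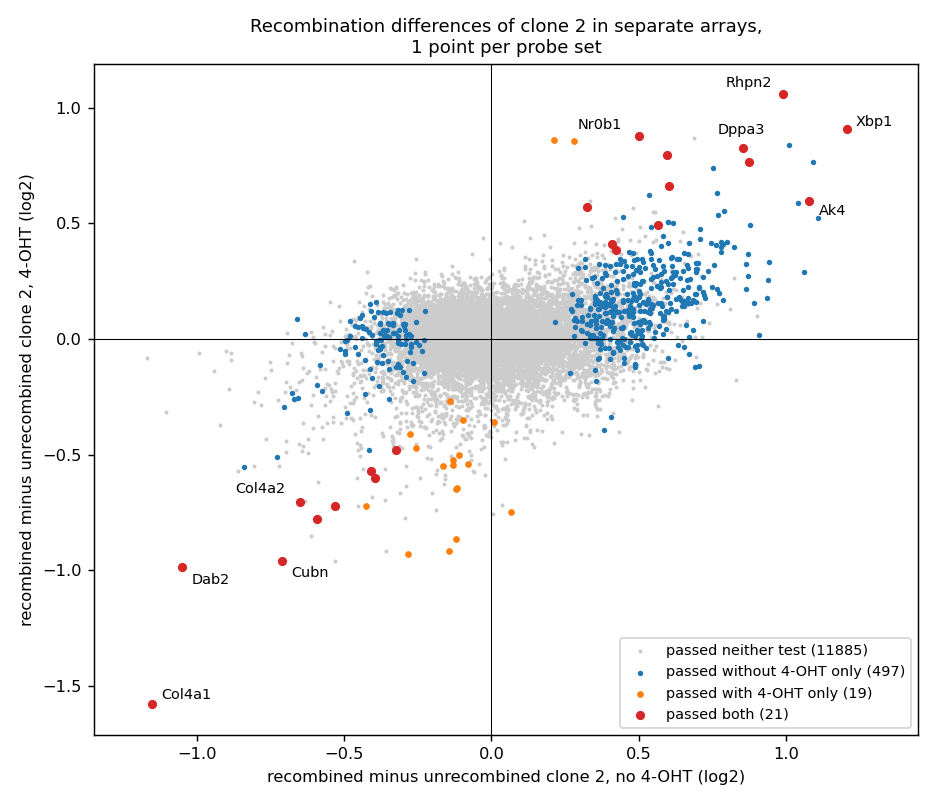
Log2 change on recombination of clone 2 without 4-OHT (horizontal) and with 4-OHT (vertical), 1 point per probe set, from separate arrays. The 21 probe sets that passed both tests lie in the lower left (Col4a1, Dab2, Cubn, Col4a2) and upper right (Xbp1, Rhpn2, Ak4, Dppa3, Nr0b1), and 497 passed without 4-OHT only.

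Clone 1, another clone with the same insert, gave another pattern on 9 arrays without 4-OHT. Its recombination difference passed for 164 probe sets (1.32%). Of the 392 rises of clone 2, 241 (61.5%) had the same sign in clone 1, against 54.8% of all probe sets; 17 passed in the same and 11 in the opposite direction. Of the 126 falls, 65 (51.6%, against 45.2% of all) had the same sign; Rpl39l, a ribosomal protein retrogene, passed in the same direction, and Col4a1 and Col4a2 passed in the opposite one. The difference between the clones itself passed for 168 probe sets (1.35%), 127 higher and 41 lower in clone 2.

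Col4a1 rose by 1.05 in clone 1 from 7.95 ± 0.23, so that the clones differed by -2.20 ± 0.27 (adjusted p = 5.38e-06), and Col4a2 rose by 0.30 there, a difference of -0.95 ± 0.09 (adjusted p = 7.78e-09). Unrecombined clone 1 and recombined clone 2 had similar Col4a1 levels near the wild-type mean of 7.80 ± 0.18. The guanylate-binding proteins also went opposite ways: in clone 1 Gbp2 fell by 1.08, Gbp2b by 0.96 and Gbp3 by 0.81, and the clones differed by 1.95 ± 0.12 (adjusted p = 6.54e-13), 1.73 ± 0.15 (adjusted p = 2.09e-09) and 1.52 ± 0.21 (adjusted p = 7.68e-05). Of the 26 interferon-induced genes 0 rose and 11 fell in clone 1, and the clones differed for 10, all higher in clone 2. The opposite signs had different starting levels, since Gbp2 was at 8.63 ± 0.10 in unrecombined clone 1 and at 6.96 ± 0.13 in unrecombined clone 2, on either side of wild type, while the recombined cells of clone 1 (7.55 ± 0.03) and clone 2 (7.83 ± 0.11) were nearer to each other. With the clones' recombined arrays closer than their unrecombined ones, what recombination itself did and how the unrecombined cultures differed cannot be told apart.

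Psmb8 and the kinase Pim2 differed between the clones (1.74 and 1.66) through a fall in clone 1 of 1.55 and 1.65, with changes in clone 2 of 0.19 and 0.00. Anxa1, a phospholipid-binding protein, and Acta1, skeletal actin, differed (-1.20 and -1.10) through rises in clone 1 of 1.13 and 1.08. Lgals1 (-1.19, adjusted p = 0.0158) and Lama1 (-0.98, adjusted p = 0.0067) differed with opposite signs in the clones, of which the fall in clone 2 passed. For Xbp1 (1.27, adjusted p = 0.00218), Pfkp (1.43, adjusted p = 0.0199) and Kit (0.63, adjusted p = 0.00621) the change in clone 1 was -0.06, -0.32 and -0.08. Rhox5 (0.75, adjusted p = 0.00114) and Tfap2c (0.71, adjusted p = 0.00104) differed too, with changes in clone 1 of -0.15 and -0.36. Of the pluripotency genes none differed between the clones by this test, with Nanog at 0.60 (adjusted p = 0.0724), and 1 rose in clone 1, Nr0b1 (0.51, adjusted p = 0.0158).

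The levels of these probe sets were set beside those of the other groups. For 388 of the 392 rises (99.0%) the wild-type mean lay nearer to recombined than to unrecombined clone 2, and in 251 it lay beyond the recombined mean. For the 126 falls wild type was nearer to recombined cells in 122 (96.8%). Unrecombined clone 1 was nearer to recombined clone 2 in 348 of the rises (88.8%) and in 115 of the falls (91.3%). Unrecombined clone 2 with 4-OHT was nearer to recombined cells in 258 rises (65.8%) and 95 falls (75.4%). The probe sets were chosen for the difference between the first groups, so these shares are a description with no test.

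By chromosome, rises were most frequent on chromosome 11, where 60 of 705 measured genes rose (8.51%), against 313 of 8237 (3.80%) over all chromosomes, and falls were at 0.993% there against 1.03%. Calcoco2, Xbp1, Zfp62 and Irgm1 lie on it, as do Ube2b, Ppp2ca and Skp1, neighbours in the order of measured genes that all rose. The next highest shares of rises were 6.99% on chromosome 18 and 5.41% on the X chromosome. The median change over the genes of chromosome 11 was -0.02 without 4-OHT, 0.04 with it and -0.01 in clone 1. The only other run of 3 neighbours that moved together was Gbp3, Gbp2b and Gbp2.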

How the data were processed

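Total RNA of 44 mouse ES cell samples was labelled with biotin and hybridised to 1 MG-U74Av2 array each. The authors deposited 1 intensity per probe set and array on the linear scale, made with RMA per the submitters' processing notes, which corrects background, normalises arrays by quantiles and summarises probes. Its version and which arrays were normalised together are not given in the sources used here. Median intensities were 106.3 to 112.3. Depth does not apply to arrays; precision is limited by their number.

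Intensities were converted to log2. Of 12488 probe sets, 66 controls were left out and 12422 tested with no filter. From the platform annotation 10833 had 1 symbol, 396 several and 1193 none; 10817 matched RefSeq (GRCm38.p6) by Entrez ID. In 11 groups, 39 arrays were fitted with limma 3.58.1 (R 4.3.3; lmFit, eBayes; 28 residual degrees of freedom) and adjusted by Benjamini-Hochberg. Scripts were tested on simulated data. Figures used matplotlib 3.10.9.

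Named genes were Hhex, Tle4 and Nodal, up to 12 with the largest rise and up to 12 with the largest fall among passing, non-overlapping probe sets with 1 symbol, up to 4 passing members of each of 31 gene lists, and up to 5 a direction of the other comparisons. Others are list members given as values. In a list a gene was represented by its brightest probe set. The members and lists were chosen with earlier results of these data known. Alternatives were other sets of arrays, centring, quantile normalisation, a filter, eBayes options, weights, a replicate block, a stricter threshold, each array left out, and the β-actin ratio; the fits with the GAPDH ratio and the list counts under alternatives were added after seeing the data. Promoter windows held 250 bases before a start.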

Additional observations from a re-analysis of the deposited data

Results flagged for a closer look

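The change on recombination without 4-OHT differed between clone 2 and clone 1, by the limma test of that difference, for the following genes. Clone 2 minus clone 1 on the log2 scale was 1.95 for Gbp2, 1.73 for Gbp2b, 1.52 for Gbp3 and 1.74 for Psmb8, genes of the interferon response, and 1.66 for the kinase Pim2. It was 0.82 for Irgm1. It was 1.43 and 1.12 for the probe sets of Pfkp, 1.27 for Xbp1, 0.99 for Zfp62, 0.92 for Nabp1, 0.88 for Dnajc21, 0.83 for Calcoco2 and 0.67 for Ak4. It was 0.78 for Nid2, 0.75 for Rhox5, 0.71 for Tfap2c, 0.63 for Kit, 0.57 for Msmo1 and 0.54 for Tle1. In the matrix and endoderm genes it was -2.20 for Col4a1, -0.98 for Lama1, -0.95 for Col4a2, -0.84 for Cubn and -0.82 for Dab2. It was -1.20 for Anxa1, -1.19 for Lgals1, -1.10 for Acta1, -0.91 for Srgn and -0.49 for the mesoderm gene Foxf1.

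The change of Inhbb in clone 2 differed between arrays with and without 4-OHT by -0.74, by the limma test of that difference.

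Single arrays of other groups lay far from the rest of their group. In recombined clone 1 without 4-OHT these were array 1 at 8.60 for Ak4, 6.42 for Rhpn2, 9.27 for Fbxo15 and 8.38 for Bub1, array 2 at 5.79 for Cd1d1, array 3 at 10.07 for Socs2, 9.27 for Hmgcs1 and 9.12 for Nid2, and array 4 at 8.07 for Wee1. In unrecombined clone 1 it was array 5 at 7.90 for Wee1, and in wild type array 3 at 9.36 for Tfap2c and 9.18 for Tle3. These were 12 of 228 groups of 4 or 5 arrays examined over 76 probe sets, and chance gives about 1 in 20. Groups of 3, which include both groups compared, were not examined.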

How the results depend on the processing

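Counts of probe sets past the threshold moved most. For recombination of clone 2 without 4-OHT (518), they were 40 with all 40 assigned arrays, 252 with the 28 HexERTVP2 arrays, 13 with the 6 arrays alone, 1214 with the β-actin and 233 with the GAPDH ratio as a covariate, and 107 at an adjusted p under 0.01. Leaving out 1 array gave 97 (unrecombined array 3) to 753 (unrecombined array 2, with 378 higher and 375 lower), with 103 and 136 without recombined arrays 2 and 3. With 4-OHT (40), the same settings gave 13 with all arrays, 0 with its 6 arrays alone, 124 with β-actin, 64 with GAPDH, 24 at 0.01 and 1489 with array weights. Leaving out 1 array gave 17 (recombined array 2) to 42, with 22 without unrecombined array 4. For the difference between the clones (168) they were 36, 82 with the HexERTVP2 arrays, 39 with its groups alone, 517, 286 and 65. Leaving out 1 array gave 73 (recombined array 3) to 323 (unrecombined array 2), with 77 without recombined array 2. For the difference by 4-OHT (1) they were 0 with all arrays, with its groups alone, at 0.01 and with dim probe sets left out, 2 with centring or a trended robust eBayes, 6 with β-actin, 870 with array weights, and 0 to 4 with 1 array left out. The cause of these moves was not tested.

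A replicate block on the shared array numbers gave 845, 288 and 4 probe sets without 4-OHT, between the clones and by 4-OHT. Deviations of same-numbered arrays from their group means correlated at -0.03 and 0.42, and those of other pairs across the groups at -0.61 to 0.45. So few pairs cannot show whether same-numbered arrays share more than a number. Of 66 probe sets of named genes that passed, 0 changed sign under the alternatives run for single genes, array omissions included. Of 10 that did not pass, 7 did, near 0: Hhex, Tle4, Nodal, Psmb8, Pim2, Anxa1 and Acta1. The 66 were chosen because they passed, and fits that differ only in arrays of other groups leave the log2 change as it was. A change of sign among them was therefore unlikely from the start, and its absence is no measure of steadiness. Of the 66, 23 passed in each of the 6 fits that left out an array, among them Col4a1, Col4a2, Dab2, Cubn, Lama1, Nanog, Dppa3, Tfcp2l1, Gbp2, Gbp2b and Xbp1; 34 passed with GAPDH, 12 with all 40 arrays and 8 with the 6 arrays alone.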
